A study of Mus musculus with 12 samples.

Results

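Many antiviral effector genes encode proteins that block a virus at a particular step of its life cycle. The set described here holds 9 genes, taken by gene symbol from a table of 55401 annotated mouse genes, and all 9 had a row. They were the GTPases Mx1 and Mx2, the radical SAM enzyme Rsad2 (viperin), the membrane tether Bst2 (tetherin), the interferon-induced transmembrane proteins Ifitm1, Ifitm2 and Ifitm3, the dNTP hydrolase Samhd1, and Ifi35, a leucine zipper protein that pairs with Nmi.

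The cells were bone marrow mesenchymal stem cells (MSCs) of C57BL/6 mice, a purchased preparation. MSCs were left untreated, or were treated with 5 ng/mL TGF-β1, a cytokine that drives fibroblast-like cells toward myofibroblasts. The other groups received TGF-β1 together with the culture supernatant (sup) of monocytic (M-MDSC) or granulocytic (G-MDSC) myeloid-derived suppressor cells, which had been induced from mouse bone marrow with GM-CSF and IL-6 and sorted. Each of the 4 groups had 3 mRNA libraries, and no group received supernatant without TGF-β1, so an effect of a supernatant by itself was not measured. No group is described as TGF-β1 with MDSC medium that had held no cells. The paper gives RPMI for MDSCs and DMEM for MSCs, so medium and products of the MDSCs cannot be told apart. Nothing in the sources says that the 3 libraries of a group came from separate cultures, so the p-values measure only the spread between these libraries, which may be technical.

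Type I, II and III interferons bind separate receptors on the cell surface and signal through JAK kinases to STAT transcription factors. A complex that contains STAT2 and IRF9 binds the interferon-stimulated response element (ISRE), and STAT dimers bind the gamma-activated site (GAS). Fibroblasts and MSCs keep a basal level of several of these genes in the absence of a virus.

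Libraries held 73977669 to 84565450 counts. Abundance is given as FPKM, fragments scaled to exon length and to mapped reads, and comparisons between groups as log2 fold changes of counts from edgeR's quasi-likelihood F test, with p-values adjusted by Benjamini-Hochberg over the 12016 genes that reached 1 FPKM in 3 or more libraries. A gene was called changed at an adjusted p under 0.05. Of the 9 genes, 7 were tested, and Mx1 and Ifitm1 stayed under 1 FPKM in all 12 libraries. Mx2 reached 1 FPKM in the 6 supernatant libraries and 1 untreated library, and Rsad2 in every library outside the TGF-β1 group. These 2 genes therefore passed the minimum through the groups where they were high, and counts of called genes below are given as descriptions. The 10 MSC markers summed to between 1405 and 1921 FPKM in the 12 libraries, and Col1a1, Vim and Itgb1 made up most of each sum. The markers did not move together. With TGF-β1, mean Col1a1 rose from 498 to 1033 FPKM and mean Ly6a fell from 245 to 16.2 FPKM, while Eng was under 1 FPKM in every library.

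The supernatant libraries also held transcripts of another tissue. Of 12 kidney tubule markers, 11 (all but Aqp1, which MSCs also expressed, at a mean of 29.9 FPKM when untreated) summed to between 0.048 and 0.084 FPKM in untreated libraries and to between 0.066 and 0.20 FPKM in TGF-β1 libraries. The same sum was 71.1, 82.4 and 82.3 FPKM with G-MDSC sup and 34.2, 43.6 and 106.7 FPKM with M-MDSC sup, so that M-MDSC sup replicate 3 stood apart from its group. Kap, Umod and Slc34a1 were at 0 counts in all 6 libraries without supernatant and were detected in all 6 with it. Because the markers separate the supernatant groups from the others, their part in the differences of the antiviral genes cannot be told apart from the supernatant itself. Values without M-MDSC sup replicate 3 are given with the results.

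Markers of myeloid cells, from which the supernatants came, were also measured. The 16 myeloid markers summed to 26.9 to 28.1 FPKM in untreated, 13.6 to 15.8 FPKM in TGF-β1, 26.3 to 29.7 FPKM in G-MDSC sup and 20.6 to 26.2 FPKM in M-MDSC sup libraries, and Cd14, which MSCs express, made up most of each sum. Elane and Mpo were at 0 counts in all 12 libraries. Most of the other low markers had more counts with supernatant than with TGF-β1 alone. Cybb, a subunit of the phagocyte oxidase, had 0 counts in all 6 libraries without supernatant and 6 to 33 counts in the 6 with it. S100a9 had 0 counts without and 0 to 160 with, and Itgam had 0 to 1 without and 0 to 42 with. Ptprc had 0 to 4 counts without and 0 to 26 with, Fcgr3 0 to 4 and 0 to 27, Tyrobp 0 to 6 and 0 to 25, and S100a8 0 to 4 and 0 to 33. Ly6g had 152 to 161 counts untreated, 4 to 8 with TGF-β1 and 0 to 18 with supernatant, Ly6c2 had 393 to 439, 0 to 21 and 20 to 79, and Spi1 had 0 to 28, 0 to 4 and 4 to 18. Ly6g, Ly6c2 and Spi1 had lower summed counts with TGF-β1 than untreated. Against TGF-β1, summed counts of Ly6c2 (35) and Spi1 (4) were higher with G-MDSC sup (163 and 26) and M-MDSC sup (105 and 30), while Ly6g (19) had 34 and 18. Lyz2, the lysozyme of macrophages and granulocytes, had 0 to 23 counts without supernatant and 71 to 262 counts with it, with a log2 fold change of 4.60 for M-MDSC sup against TGF-β1 (edgeR, adjusted p = 0.0262), against 0.54 for Cd14 (adjusted p = 0.00178) and 1.65 for Ly6c2, which was not called (adjusted p = 0.325). The part of such cells in the results was not tested.

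Sequence upstream of the transcription start was taken from RefSeq (GRCm38.p6) and was found for 7 of the 9 genes, all but Mx1 and Mx2. A window of 250 bases before and 50 bases after the start was searched on both strands for the ISRE letters GAAANNGAAA and the GAS letters TTCNNNGAA. The ISRE letters occurred in the windows of Rsad2, Bst2, Ifitm2 and Ifitm3, against 3.44% of all 32851 promoters and 15 of 31 other interferon-stimulated genes with an entry (48.4%). Counted by gene, as the members are, 1079 of 27025 genes held them in a promoter. The upstream 250 bases of Bst2, Rsad2 and Ifitm2, on the strand of the gene and ending at the base before the start, are shown because these genes hold the same letters but differed in response, with the ISRE match in capitals (all 3 genes are on the minus strand).
Bst2 (chr8:71537473-71537722): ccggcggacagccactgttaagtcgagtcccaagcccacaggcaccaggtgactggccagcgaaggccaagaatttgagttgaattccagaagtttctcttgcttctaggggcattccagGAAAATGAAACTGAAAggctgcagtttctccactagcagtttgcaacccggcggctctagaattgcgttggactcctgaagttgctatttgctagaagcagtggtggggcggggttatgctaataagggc
Rsad2 (chr12:26456453-26456702): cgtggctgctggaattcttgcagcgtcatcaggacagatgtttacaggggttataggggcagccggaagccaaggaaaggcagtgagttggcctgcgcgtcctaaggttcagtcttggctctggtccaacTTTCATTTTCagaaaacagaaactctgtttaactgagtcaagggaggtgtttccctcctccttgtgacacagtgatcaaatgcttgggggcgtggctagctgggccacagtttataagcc
Ifitm2 (chr7:140955962-140956211): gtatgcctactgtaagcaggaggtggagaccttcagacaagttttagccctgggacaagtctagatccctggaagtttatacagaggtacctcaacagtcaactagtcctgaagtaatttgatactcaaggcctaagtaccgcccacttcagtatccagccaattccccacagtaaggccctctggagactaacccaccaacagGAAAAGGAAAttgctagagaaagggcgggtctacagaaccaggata

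In Bst2 the capitals join a pair of matches that overlap, at positions -130 to -121 and -124 to -115 from the start, and the GAS letters at -136 to -128 overlap the first of them. The match of Rsad2, at -120 to -111, is on the opposite strand, and that of Ifitm2 lies at -46 to -37. Ifitm3 had its pair of matches downstream of the start, at 3 to 12 and 20 to 29, with GAS letters at 14 to 22 between and overlapping the second. This stretch, chr7:141010716-141010742 on the minus strand, is shown with the ISRE letters in capitals.
Ifitm3: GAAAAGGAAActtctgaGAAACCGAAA
The first 10 bases of this stretch are the same letters as the match of Ifitm2. GAS letters were in the windows of Bst2, Ifitm3, Samhd1 and Ifi35, against 8.30% of all promoters (2582 of 27025 genes) and 7 of 31 other interferon-stimulated genes (22.6%). Ifitm1 held neither motif. A match is a description of letters in the window and does not show a bound factor.

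Treatment with TGF-β1 was first compared with untreated MSCs. All 7 tested genes were lower in TGF-β1 treated than in untreated MSCs, when 17.9% of all genes tested were called lower in this comparison (edgeR, 2153 genes). The study's own rule, a fold above 2 or below 0.5 with an unadjusted p under 0.05, was met by 4 of them (Mx2, Rsad2, Bst2 and Ifitm3) and by 4.14% of all genes. Every TGF-β1 library was below every untreated library for all 7 genes, as for 30.0% of all genes. The fall was largest for Mx2 and Rsad2 and smallest for Ifitm2 and Samhd1. In bulk libraries, fewer expressing cells and less RNA per cell cannot be told apart.

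Bst2, which tethers budding enveloped virions to the cell surface, was at 71.6, 70.2 and 76.9 FPKM in untreated MSCs and at 25.9, 31.0 and 33.6 FPKM with TGF-β1. The groups were well apart, and the log2 fold change was -1.22 (SE 0.085, adjusted p = 1.26e-06). The gene lies on chromosome 8 at 71534255 to 71537456 (GRCm38, minus strand).

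Ifitm3 and Ifitm2, which sit in endosomal membranes and restrict the fusion of viruses with them, were the most abundant of the genes per length in untreated MSCs. Ifitm3 was at 550, 594 and 584 FPKM untreated and at 212, 221 and 246 FPKM with TGF-β1, a log2 fold change of -1.29 (SE 0.056, adjusted p = 3.61e-08). Ifitm2 was at 395, 452 and 453 FPKM untreated and at 296, 303 and 305 FPKM with TGF-β1, a log2 fold change of -0.47 (SE 0.053, adjusted p = 4.82e-05). Neither gene overlapped between the groups. The related gene Ifitm1 had 8, 10 and 8 counts untreated and 0 counts in each TGF-β1 library. A count of 0 allows up to 3 counts where each count is an independent fragment, and may allow more here, since low counts piled up at multiples of 4.

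Rsad2, which converts CTP into a chain-terminating nucleotide, was at 2.42, 2.67 and 2.42 FPKM untreated and at 0.38, 0.25 and 0.32 FPKM with TGF-β1 (log2 fold change -2.93, SE 0.16, adjusted p = 2.21e-07). All TGF-β1 libraries were thus far below all untreated ones, at a mean of 12.6% of the untreated mean. Its neighbour Cmpk2, a mitochondrial nucleotide kinase gene 12751 bp away on chromosome 12, had a log2 fold change of -3.30 (SE 0.13, adjusted p = 1.81e-08) in the same comparison.

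Mx2, a cytoplasmic dynamin-like GTPase, was at 0.71, 0.71 and 1.00 FPKM untreated, from 221, 241 and 326 counts. With TGF-β1 it was at 0.012, 0.095 and 0.11 FPKM, from 4, 33 and 37 counts, a log2 fold change of -3.36 (SE 0.43, adjusted p = 1.37e-04). On the log2(FPKM + 1) scale, which understates changes of low genes, the difference was -0.75 for Mx2 and -1.42 for Rsad2, and both kept their calls in limma. Mx1, its nuclear relative, had 21, 62 and 45 counts untreated and 0, 0 and 4 counts with TGF-β1, so that the groups did not overlap at a low level. In a fit without a minimum FPKM, over 28622 genes, Mx1 had an adjusted p of 0.0045 in this comparison. Both genes are known to carry defective alleles in many inbred mouse strains, and the annotation in the table lists polymorphic pseudogene transcripts for both.

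Ifi35 was at 8.24, 8.28 and 10.6 FPKM untreated and at 4.59, 4.46 and 4.49 FPKM with TGF-β1, a log2 fold change of -0.94 (SE 0.089, adjusted p = 1.22e-05). Its partner Nmi also fell, with a log2 fold change of -0.87 (SE 0.11, adjusted p = 1.01e-04). Samhd1, which restricts retroviruses by depleting dNTPs, was at 10.2, 9.77 and 10.7 FPKM untreated and at 6.62, 7.17 and 6.65 FPKM with TGF-β1 (log2 fold change -0.53, SE 0.057, adjusted p = 3.46e-05). For both genes all TGF-β1 libraries were below all untreated ones.

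**Figure D1:**
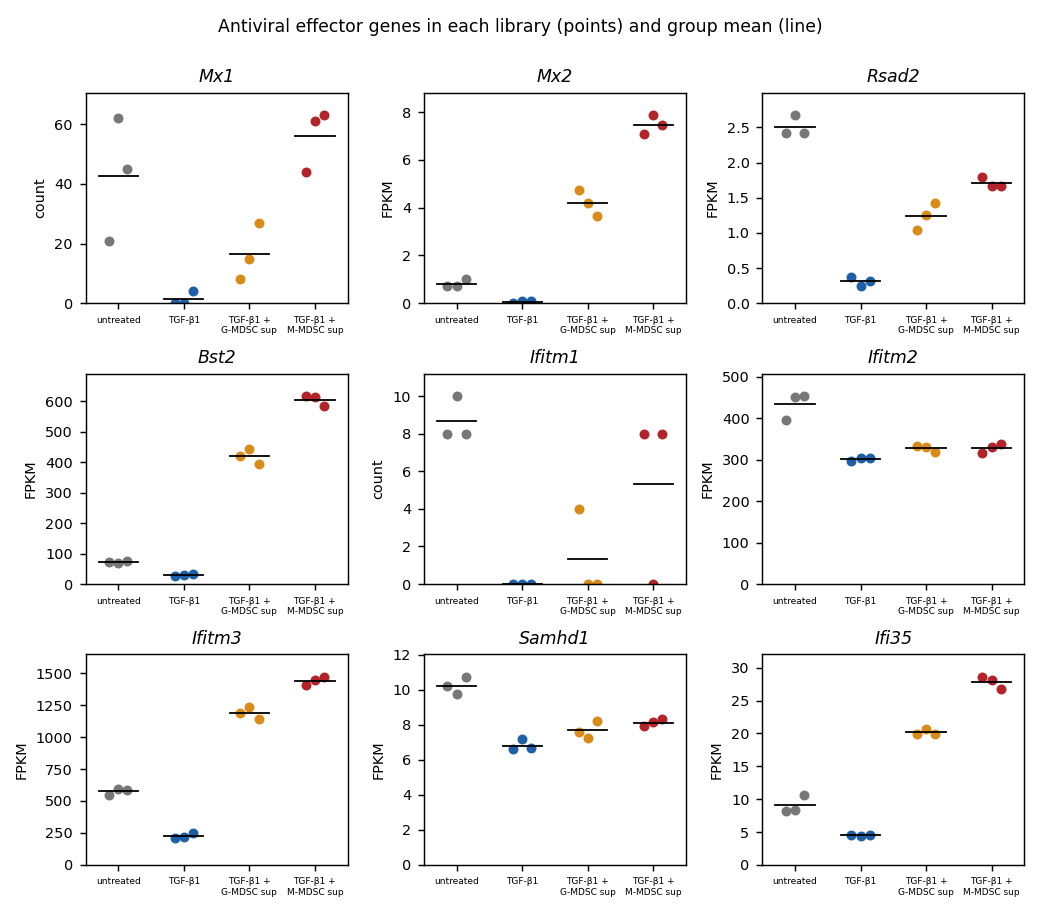
Level of each of the 9 antiviral effector genes in the 12 libraries, 1 panel per gene, in FPKM or, for Mx1 and Ifitm1, in counts, with groups on the x axis, points for libraries and a line for the group mean. Bst2, Ifitm3, Mx2 and Ifi35 rose above the untreated level with either supernatant, while Ifitm2 and Samhd1 stayed between the TGF-β1 and untreated levels.

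The supernatants were next compared with TGF-β1 alone. Bst2, Mx2, Ifitm3, Ifi35 and Rsad2 were higher with M-MDSC sup and with G-MDSC sup, whereas Ifitm2 was not called with either. Of the 7 genes tested, 6 were called higher with M-MDSC sup, when 2.83% of all genes tested were, and 5 with G-MDSC sup, when 3.10% of all genes were. By the study's rule 5 were higher with M-MDSC sup (1.94% of all genes) and 5 with G-MDSC sup (1.90%). Both comparisons rest on the same 3 TGF-β1 libraries, so their values are given side by side and not as independent evidence.

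Bst2 was at 618, 615 and 584 FPKM with M-MDSC sup and at 421, 443 and 395 FPKM with G-MDSC sup, and no supernatant library came near the highest TGF-β1 library at 33.6 FPKM. Relative to TGF-β1 the log2 fold change was 4.31 (SE 0.095, 19.8-fold, adjusted p = 6.46e-10) with M-MDSC sup and 3.77 (SE 0.093, 13.7-fold, adjusted p = 2.25e-09) with G-MDSC sup. Ranked by mean FPKM among the 12016 genes, Bst2 was at place 1622 with TGF-β1 and at place 71 with M-MDSC sup. Its nearest tested neighbours moved little: Gtpbp3 had a log2 fold change of 0.13 (adjusted p = 0.529) and Mvb12a, 5465 bp away, of 0.29 (adjusted p = 0.0021) with M-MDSC sup.

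Ifitm3 was at 1404, 1449 and 1471 FPKM with M-MDSC sup and at 1186, 1239 and 1143 FPKM with G-MDSC sup. Compared with TGF-β1 alone, the log2 fold change was 2.65 (SE 0.059, adjusted p = 6.46e-10) with M-MDSC sup and 2.37 (SE 0.058, adjusted p = 2.25e-09) with G-MDSC sup, and it was the gene at place 22 of 12016 by mean FPKM with M-MDSC sup. Ifitm2, 53598 bp away on chromosome 7, was at 316, 330 and 338 FPKM with M-MDSC sup and at 332, 330 and 319 FPKM with G-MDSC sup. These libraries lay just above the TGF-β1 libraries, and the log2 fold changes of 0.10 (95% interval -0.016 to 0.22, adjusted p = 0.379) and 0.092 (95% interval -0.025 to 0.21, adjusted p = 0.435) did not pass the test.

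The 2 Ifitm genes can be set against each other within a library. The FPKM of Ifitm3 divided by that of Ifitm2 was 1.39, 1.31 and 1.29 in untreated MSCs and 0.72, 0.73 and 0.81 with TGF-β1, so that Ifitm2 was the more abundant only in the TGF-β1 group. The ratio was 3.57, 3.75 and 3.58 with G-MDSC sup and 4.44, 4.39 and 4.35 with M-MDSC sup. The 4 groups did not overlap in this ratio. The log2 ratio was 2.55 higher with M-MDSC sup than with TGF-β1 and 2.28 higher with G-MDSC sup, each with p = 0.1 in a two-sided exact permutation test, which is the smallest value that 3 against 3 libraries allow (4 comparisons of the ratio, adjusted p = 0.1). Of all runs of 50 bases in the transcripts of Ifitm2, 3.30% also occur in Ifitm3, so the 2 genes share few reads of that length. The transcript of Ifitm2 overlaps the annotated gene Gm45717 on the same strand over 1101 bp, and that gene had 0 to 18 counts.

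**Figure D2:**
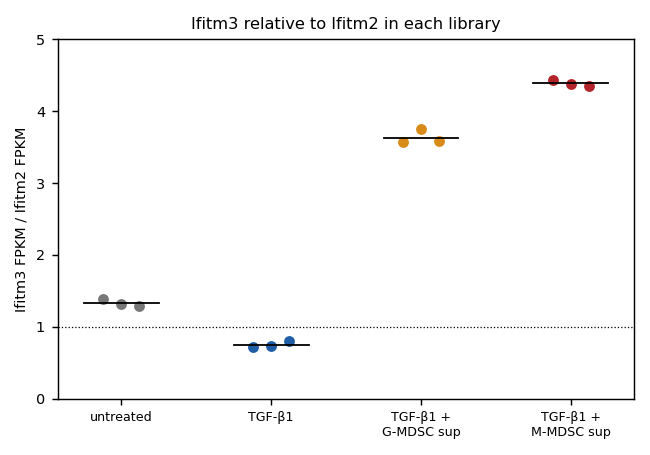
FPKM of Ifitm3 divided by FPKM of Ifitm2 (y axis) in each of the 12 libraries by group (x axis), with the group mean as a line and a dotted line at equal levels. The ratio was 0.72 to 0.81 with TGF-β1, 1.29 to 1.39 in untreated MSCs and 3.57 to 4.44 with a supernatant.

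Ifitm1 and the other genes of the family contributed almost nothing. Ifitm1 had 8, 0 and 8 counts with M-MDSC sup and 4, 0 and 0 counts with G-MDSC sup, which overlaps the 0 counts of the TGF-β1 libraries. Ifitm5, Ifitm6, Ifitm7 and Ifitm10 were also under the minimum and together summed to between 0.71 and 0.94 FPKM in all libraries. Ifitm2, Ifitm1 and Ifitm3 lie within 55934 bp on chromosome 7 (140954837 to 141010770).

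Mx2 was at 7.07, 7.87 and 7.47 FPKM with M-MDSC sup and at 4.76, 4.22 and 3.65 FPKM with G-MDSC sup, from 2127 to 2348 and 1188 to 1624 counts. Relative to TGF-β1 the log2 fold change was 6.60 (SE 0.47, adjusted p = 6.44e-06) and 5.77 (SE 0.45, adjusted p = 1.85e-05), where the TGF-β1 group held only 74 counts in all. On the log2(FPKM + 1) scale these differences were 2.98 and 2.28, and limma called both. Mx1 had 44, 61 and 63 counts with M-MDSC sup and 8, 15 and 27 with G-MDSC sup, above the 0 to 4 counts of the TGF-β1 libraries in each case. In the fit without a minimum FPKM its adjusted p was 0.0132 with M-MDSC sup and 0.103 with G-MDSC sup. The genes lie 72400 bp apart on chromosome 16, Mx1 at 97447035 to 97462907 and Mx2 at 97535308 to 97560900, and share 3.86% of the runs of 50 bases of Mx1.

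Rsad2 was at 1.79, 1.67 and 1.66 FPKM with M-MDSC sup and at 1.04, 1.25 and 1.42 FPKM with G-MDSC sup, all above the TGF-β1 libraries and all below the untreated ones. Relative to TGF-β1 the log2 fold change was 2.41 (SE 0.16, adjusted p = 3.59e-06) with M-MDSC sup and 1.94 (SE 0.16, adjusted p = 2.49e-05) with G-MDSC sup, or 1.04 and 0.76 on the log2(FPKM + 1) scale, where limma called both. The neighbouring Cmpk2 had 3.38 (SE 0.13, adjusted p = 3.15e-08) and 2.58 (SE 0.13, adjusted p = 3.23e-07).

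Ifi35 was at 28.6, 28.1 and 26.8 FPKM with M-MDSC sup and at 19.9, 20.6 and 19.9 FPKM with G-MDSC sup, with log2 fold changes of 2.60 (SE 0.092, adjusted p = 1.93e-08) and 2.13 (SE 0.091, adjusted p = 1.04e-07). Nmi had 2.62 (SE 0.11, adjusted p = 8.12e-08) and 2.13 (SE 0.11, adjusted p = 5.29e-07). Vat1, on the other strand, has its 3′ end 46 bp beyond that of Ifi35 and had a log2 fold change of -0.16 (adjusted p = 0.0744) with M-MDSC sup, and Rpl27, 2877 bp away on the other side, of 0.011 (adjusted p = 0.96). The antisense gene Gm11626, which overlaps Ifi35 over 815 bp, had 0 to 14 counts.

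Samhd1 was at 7.91, 8.15 and 8.32 FPKM with M-MDSC sup and at 7.57, 7.26 and 8.20 FPKM with G-MDSC sup. Every supernatant library was above the highest TGF-β1 library (7.17 FPKM), as in 13.4% of all genes with M-MDSC sup and 13.2% with G-MDSC sup, but by a narrow margin. The log2 fold change of 0.23 with M-MDSC sup (SE 0.057, adjusted p = 0.0466) was just past the threshold but was not called without M-MDSC sup replicate 3 (0.22, adjusted p = 0.146), replicate 1 (adjusted p = 0.0793) or replicate 2 (0.124), without any TGF-β1 library (0.158, 0.052 and 0.104), without untreated replicate 3 (0.0549) or without G-MDSC sup replicate 1 (0.07). It was also lost in a replicate block fit (adjusted p = 0.0725). The log2 fold change of 0.15 with G-MDSC sup was not called (adjusted p = 0.21, 95% interval 0.019 to 0.27).

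Without M-MDSC sup replicate 3, the library with the most kidney transcripts, the log2 fold change against TGF-β1 was 4.33 for Bst2, 2.63 for Ifitm3, 6.60 for Mx2, 2.43 for Rsad2 and 2.63 for Ifi35, and all 5 genes were called. In that library Bst2, Ifi35 and Rsad2 were lowest of the group and Ifitm3, Ifitm2 and Samhd1 were highest.

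**Figure D3:**
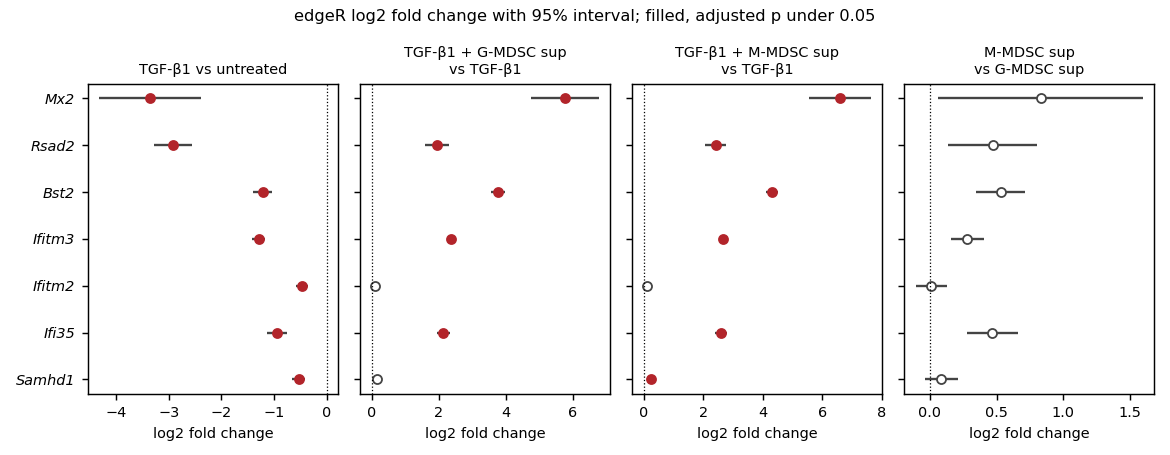
Log2 fold change (x axis) with its 95% interval for the 7 tested genes (y axis) in 4 comparisons, filled where the edgeR adjusted p was under 0.05. With either supernatant the genes ran from 0.092 and 0.10 for Ifitm2 up to 5.77 and 6.60 for Mx2, and no gene was called between the supernatants. Each panel has its own x scale.

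M-MDSC sup and G-MDSC sup were then compared directly. No member was called, when 0.125% of all genes tested were (15 genes). The count at an unadjusted p under 0.05 was 5 (Bst2, Ifi35, Ifitm3, Rsad2 and Mx2), against 6.33% of all genes tested. DESeq2 called 3 of the 7 genes and 1.01% of all genes (121), and limma on log2(FPKM + 1) called 3 and 0.325% (39). The same 5 genes were higher in all M-MDSC sup libraries than in all G-MDSC sup libraries, as were 5.97% of all genes tested. Bst2 had the smallest adjusted p, 0.0509, with a log2 difference of 0.53 (SE 0.083, 1.45-fold), and over the settings tried its adjusted p ran from 2.27e-06 with DESeq2 to 0.188 without G-MDSC sup replicate 1. Bst2 was called without M-MDSC sup replicate 3 (0.56, adjusted p = 0.049), TGF-β1 replicate 1 (adjusted p = 0.00533) or TGF-β1 replicate 3 (0.0283), and Ifi35 without untreated replicate 3 (adjusted p = 0.0042). The untreated and TGF-β1 libraries enter this comparison through the shared scaling, the estimate of the spread and the minimum FPKM that set which genes were tested.

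Ifi35 differed by 0.47 (SE 0.087, adjusted p = 0.123), Ifitm3 by 0.28 (SE 0.055, adjusted p = 0.128), Rsad2 by 0.47 (SE 0.15, adjusted p = 0.528) and Mx2 by 0.83 (SE 0.35, adjusted p = 0.755), all on the log2 scale. For Samhd1 the difference was 0.086 (95% interval -0.040 to 0.21) and for Ifitm2 0.0084 (95% interval -0.11 to 0.12), and both genes overlapped between the groups. Of 36 other interferon-stimulated genes tested, 8 were called higher with M-MDSC sup (Cmpk2, Ddx58, Ifit1, Ifit3, Ifit3b, Irgm1, Isg15 and Parp12, named after their values were seen) and none lower.

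Against untreated MSCs, the genes divided by where they ended up. Bst2, Mx2, Ifi35 and Ifitm3 were above the untreated level with both supernatants, and Rsad2, Ifitm2 and Samhd1 were below it with both. The 4 higher genes stood against 16.4% of all genes called higher with M-MDSC sup and also 16.4% with G-MDSC sup, and the 3 lower genes against 18.9% and 18.4% called lower. By the study's rule the 4 higher genes stood against 3.45% and 3.32%, and none of the 3 lower genes met it.

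Bst2 was 8.51-fold above untreated with M-MDSC sup (log2 fold change 3.09, SE 0.090, adjusted p = 2.32e-09) and 5.89-fold with G-MDSC sup. Mx2 was 9.42-fold above (3.24, SE 0.38, adjusted p = 6.4e-05) and 5.30-fold, with differences of 2.23 and 1.53 on the log2(FPKM + 1) scale. Ifi35 was 3.16-fold above (1.66, SE 0.089, adjusted p = 1.79e-07) and 2.28-fold, and Ifitm3 2.56-fold (1.36, SE 0.056, adjusted p = 2.48e-08) and 2.11-fold. In all 4 genes no supernatant library overlapped an untreated one, as for 19.4% of all genes in this direction with M-MDSC sup and 19.1% with G-MDSC sup.

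Ifitm2 stayed at a mean of 75.7% of untreated with M-MDSC sup and 75.5% with G-MDSC sup (log2 fold change -0.37 and -0.38, adjusted p = 2.75e-04 and 2.47e-04). Samhd1 stayed at 79.4% and 75.0% (log2 fold change -0.30 and -0.38, adjusted p = 0.002 and 3.73e-04). Rsad2, the third of these genes, rose from 12.6% of untreated with TGF-β1 to 68.1% with M-MDSC sup and 49.3% with G-MDSC sup (log2 fold change -0.52 and -0.99, adjusted p = 0.0199 and 4.38e-04). The call of Rsad2 with M-MDSC sup was lost without untreated replicate 2, M-MDSC sup replicate 2 or M-MDSC sup replicate 3 (adjusted p = 0.0681, 0.0592 and 0.0587). All supernatant libraries were below all untreated ones for these 3 genes, as for 28.0% of all genes with M-MDSC sup and 26.8% with G-MDSC sup. The neighbouring gene Cmpk2 had a log2 fold change of 0.081 against untreated with M-MDSC sup (adjusted p = 0.641) and of -0.72 with G-MDSC sup (adjusted p = 6.84e-04).

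**Figure D4:**
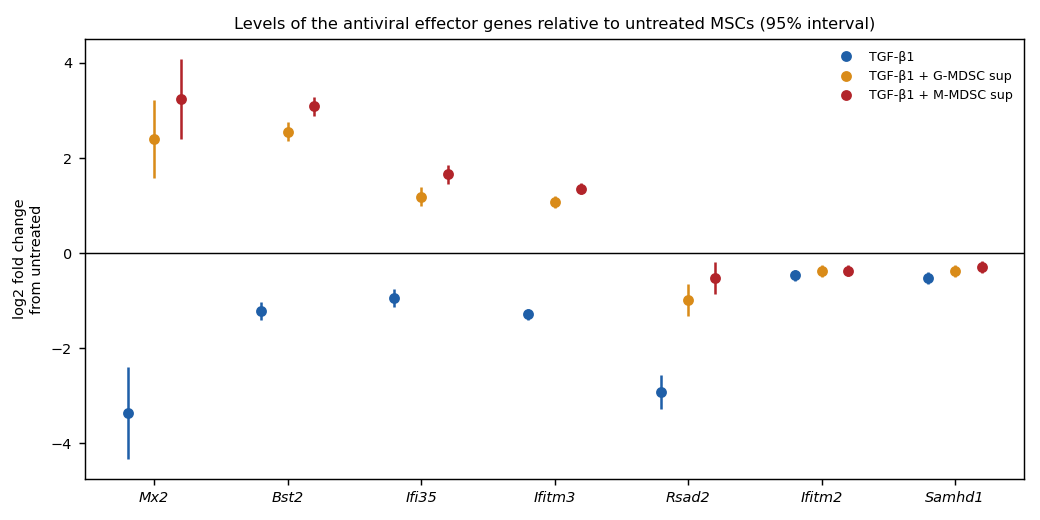
Log2 fold change from untreated MSCs (y axis) with its 95% interval for the 7 tested genes (x axis), coloured by group. All 7 genes were below 0 with TGF-β1, and with a supernatant Mx2, Bst2, Ifi35 and Ifitm3 were at 1.08 to 3.24 while Rsad2, Ifitm2 and Samhd1 were at -0.99 to -0.30.

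The order of the genes by mean FPKM therefore changed between groups. In untreated MSCs it ran from Ifitm3 (576 ± 23.2, SD, n = 3) through Ifitm2 (434 ± 33.2), Bst2 (72.9 ± 3.51), Samhd1 (10.2 ± 0.48), Ifi35 (9.03 ± 1.34), Rsad2 (2.51 ± 0.14) and Mx2 (0.81 ± 0.17) to Mx1 (0.12 ± 0.054) and Ifitm1 (0.083 ± 0.0080). Samhd1 and Ifi35 overlapped between libraries, as did Mx1 and Ifitm1. With M-MDSC sup it ran from Ifitm3 (1441 ± 34.1) and Bst2 (605 ± 18.9) through Ifitm2 (328 ± 10.9), Ifi35 (27.8 ± 0.93), Samhd1 (8.13 ± 0.21) and Mx2 (7.47 ± 0.40) to Rsad2 (1.71 ± 0.070), and no neighbours among these 7 overlapped.

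Pearson correlations of log2(FPKM + 1) across the 12 libraries were 0.96 to 0.99 among Mx2, Bst2, Ifitm3 and Ifi35, and 0.80 to 0.92 among Rsad2, Ifitm2 and Samhd1. Rsad2 lay in between, with 0.42 to 0.62 to the first 4 genes, and Ifitm2 and Samhd1 had -0.11 to 0.27 to them. These values describe 12 libraries of 4 treatment groups and share their group means. The genes outside the set that followed most closely were B2m, Irgm1 and Isg15 for Mx2 (r = 0.996 to 0.998), Oas1a, Usp18 and Parp12 for Bst2 (0.997 to 0.999), Apol9a, Oas1b and Trim21 for Ifitm3 (0.994 to 0.997), and Gbp3, Trim30a and Irf7 for Ifi35 (0.997 to 0.998). For Rsad2 they were Ly6a, Fbxw17 and Ehd4 (0.967 to 0.986), for Ifitm2 Fth1, Me2 and Gm47175 (0.981 to 0.985), and for Samhd1 BC052040, Hpse and Atg12 (0.975 to 0.979). Ly6a encodes the MSC marker Sca-1 and, like Rsad2, fell with TGF-β1 (log2 fold change -3.86, adjusted p = 5.15e-09), rose with M-MDSC sup (2.49, adjusted p = 2.38e-07) and remained below untreated (-1.37, adjusted p = 5.86e-06).

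The other interferon-stimulated genes give the surrounding pattern. Of 39 listed, 36 were tested. With TGF-β1 32 were called lower and none higher, and with M-MDSC sup and with G-MDSC sup 34 were called higher than TGF-β1 and none lower. Their median log2 fold change was -1.76 with TGF-β1, against 0.00048 over all 12016 genes, and 3.57 with M-MDSC sup and 3.09 with G-MDSC sup, against -0.013 and -0.014. Usp18, which removes ISG15 from proteins and restrains interferon receptor signalling, had the largest rise with M-MDSC sup (log2 fold change 6.04, SE 0.22, adjusted p = 2.05e-08), followed by Ifi44 (5.93, SE 0.23, adjusted p = 3.76e-08) and the guanylate-binding protein gene Gbp3 (5.31, SE 0.14, adjusted p = 2.08e-09).

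Against untreated MSCs, 32 of the 36 genes were called higher with M-MDSC sup and 1 lower, and 29 were higher and 2 lower with G-MDSC sup. The lower genes were Ifit2 with both supernatants (log2 fold change -0.45, adjusted p = 0.00153, and -0.56, adjusted p = 3.69e-04) and Cmpk2 with G-MDSC sup.

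**Figure D5:**
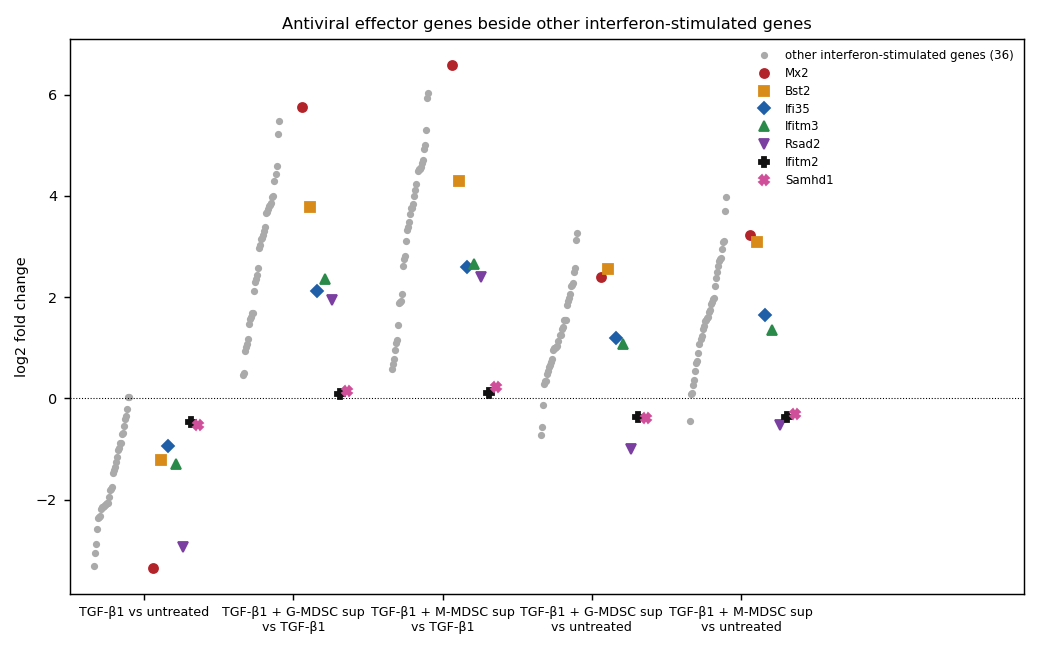
Log2 fold change (y axis) of 36 other interferon-stimulated genes (grey, sorted from low to high) and of the 7 tested antiviral effector genes (coloured symbols) in 5 comparisons. With either supernatant against TGF-β1, Ifitm2 and Samhd1 (0.092 to 0.23) lay below all grey points and Mx2 (5.77 and 6.60) above all of them.

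Signalling components of the pathway were measured as well. Irf9 was at 5.78, 5.14 and 6.11 FPKM untreated, 2.44, 2.70 and 2.31 FPKM with TGF-β1, 10.8, 12.1 and 11.5 FPKM with G-MDSC sup and 13.5, 15.6 and 15.5 FPKM with M-MDSC sup, and the 4 groups did not overlap. The log2 fold change with M-MDSC sup against TGF-β1 was 2.56 for Irf9 (SE 0.090, adjusted p = 1.93e-08) and 2.39 for Stat2 (SE 0.088, adjusted p = 2.23e-08). Irf7, the regulator that amplifies type I interferon production, had 4.53 (SE 0.17, adjusted p = 2.22e-08). Upstream of these, the receptor genes Ifnar1, Ifnar2, Ifngr1 and Ifngr2 and the kinase genes Jak1, Jak2 and Tyk2 had log2 fold changes of -0.21 to 0.19 with M-MDSC sup (adjusted p = 0.258 to 0.879) and of -0.12 to 0.37 with G-MDSC sup (adjusted p = 0.0552 to 0.874). Irf1 had 0.59 (adjusted p = 0.186), Irf2 0.072 (adjusted p = 0.70) and Socs3, a feedback inhibitor of JAK kinases, 0.31 (adjusted p = 0.00497) with M-MDSC sup. The receptor and kinase genes, Irf1, Irf2 and Socs3 were named after their values were seen.

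Transcripts of the 10 interferon ligand genes listed were nearly absent, and other interferon genes were not looked up. None of the 10 was tested, and Ifnb1, Ifng, Ifna1, Ifna2, Ifna4, Ifnk and Ifnl2 were at 0 counts in all 12 libraries, with the same limit as for Ifitm1. Ifna5, Ifne and Ifnl3 had at most 8 counts in any library. Interferon protein in the supernatants was not measured in these libraries.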

How the data were processed

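MSC libraries (poly(A) selected, stranded dUTP, paired-end on NovaSeq) were checked with fastp, trimmed with cutadapt 1.9, aligned to GRCm38 with HISAT2 2.0.4 and assembled with StringTie 1.3.4d, per the authors' methods and processing notes. The deposited table holds raw read counts per gene, and the counting tool and its strand setting are not given in the sources used here. It also holds FPKM values that the authors calculated from exon length and mapped reads. Of nonzero counts up to 12, 44.3% were 4, 8 or 12, and an alternative divided the counts by 4.

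Counts were fitted with edgeR 4.0.16 (TMM scaling, 4 groups in a single fit, quasi-likelihood F test, two-sided) in R 4.3.3, over the 12016 of 55401 genes that reached 1 FPKM in 3 or more libraries, for 6 comparisons. P-values were adjusted by Benjamini-Hochberg over all genes tested. The study's own rule (fold above 2 or below 0.5, unadjusted p under 0.05), DESeq2 1.42.0, limma 3.58.1 on log2(FPKM + 1), other filters and scalings, a replicate block and leaving out each library were alternatives. Scripts were tested on simulated data. Within each group, the variance between a pair of libraries was 62.7 to 86.5 times that of counting alone, so no pair was merged as a duplicate, which does not show that libraries came from separate cultures. Intervals of log2 fold changes come from the edgeR fit and include the spread between libraries, and the limit for a count of 0 covers counting error only and is too low where a fragment stands for several counts.

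The 9 genes and all gene lists were chosen with earlier results of these data known. Besides the 9 genes, the text names, per list, the 3 genes with the largest change between M-MDSC sup and TGF-β1, interferon genes at 0 counts, the partners Nmi, Cmpk2, Irf7, Stat2 and Irf9, and the 3 genes most correlated with each tested gene. Nearest tested neighbours, the Ifitm3 to Ifitm2 ratio, the kidney marker sum without Aqp1 and further MSC and myeloid markers were added after values were seen. Endothelial and progenitor markers stayed under 1 FPKM in all groups, and Kit had 0 to 10 counts. The counts over the interferon signalling list are not reported here. Promoters were read from RefSeq (GRCm38.p6).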

Additional observations from a re-analysis of the deposited data

How the results depend on the processing

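For TGF-β1 against untreated, 7 genes were called lower in the fit reported and 4 where a fold was also required (4 by the study's rule and 4 by adjusted p and fold). The same rules left 4 of 7 for each supernatant against untreated. A mean FPKM of at least 5 left 3 genes called with M-MDSC sup and 3 with G-MDSC sup against TGF-β1. Mx2 and Rsad2 were then not tested, and with M-MDSC sup the call of Samhd1 was also lost (adjusted p = 0.0556). Between the supernatants, 0 genes were called in the fit reported, 1 with a mean FPKM of at least 5, 1 with counts divided by 4, 2 with the groups compared only, 3 with DESeq2 and 3 with limma. Leaving out each library in turn gave 0 to 1 there (Bst2 or Ifi35), 5 to 6 for M-MDSC sup against TGF-β1 and 6 to 7 for M-MDSC sup against untreated. The difference of Ifitm2 between the supernatants (0.0084) changed sign, to -0.00846 without G-MDSC sup replicate 3 and -0.0111 without M-MDSC sup replicate 3, and was at most 0.0329 when another library was left out. The counts over all genes moved more: 769 to 4369 for TGF-β1 against untreated (4082 reported), 175 to 830 for M-MDSC sup (574) and 168 to 990 for G-MDSC sup (668) against TGF-β1, 787 to 4523 for M-MDSC sup (4234) and 787 to 4465 for G-MDSC sup (4187) against untreated, and 4 to 121 between the supernatants (15), with 47 without M-MDSC sup replicate 3. The cause was not tested. On the log2(FPKM + 1) scale the log2 differences of Mx2 and Rsad2, the low genes, were smaller than in edgeR, also against untreated with M-MDSC sup (2.23 in place of 3.24 for Mx2 and -0.37 in place of -0.52 for Rsad2), with G-MDSC sup (1.53 in place of 2.41 for Mx2 and -0.65 in place of -0.99 for Rsad2) and between the supernatants for Rsad2 (0.28 in place of 0.47).

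Replicate numbers are shared between groups, but the deviations of libraries with the same number had a mean correlation of -0.0038 (18 pairs), so the numbers were not taken to pair them. With a replicate block, 5 genes were called for M-MDSC sup against TGF-β1, 5 for G-MDSC sup against TGF-β1, 0 between the supernatants and 7 in each of the other 3 comparisons. The counts over all genes with the block lie within the ranges given above. Samhd1 with M-MDSC sup was the call lost (adjusted p = 0.0725).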
